A study of Homo sapiens with 6 samples.

Results

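The replication-dependent histone genes were compared between A375 melanoma cells kept in vehicle and cells given the BRAF inhibitor vemurafenib. Members were taken by symbol: the linker histone genes H1-1 to H1-6 and every gene named H2AC, H2BC, H3C or H4C with a number, measured by a probe set that names that gene alone. This gave 57 of the 18417 genes tested: 6 H1, 14 H2A, 16 H2B, 8 H3 and 13 H4 genes. The probe sets of H4C14 and H4C15 held the same values on every array, so the 57 genes rest on 56 distinct measurements.

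A375, an established human line from a melanoma, carries the V600E form of BRAF, a kinase that drives the ERK pathway, and all 6 dishes held these cells. In the vehicle group 3 arrays came from cells in 0.1% DMSO, and in the vemurafenib group 3 arrays came from cells in 10 µM vemurafenib, each for 24 h. The replicates of a group were grown from different stocks and harvested on different days, so they are separate cultures of a single line, and the labels do not show which vehicle dish was handled with which drug dish. Levels are log2 values per array. A change is the drug mean minus the vehicle mean of those log2 values, with 3 arrays a group setting its precision.

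Replication-dependent histones are the bulk of the protein that packages new DNA. H2A, H2B, H3 and H4 form the core particle around which DNA winds, and H1 binds the linker between particles. Their genes lie in clusters, lack introns and are transcribed in S phase, and their mRNAs end in a conserved stem-loop in place of a poly(A) tail, which the protein SLBP binds. Most variant histones are made throughout the cell cycle, from genes elsewhere. Total RNA, which holds mRNAs with and without a poly(A) tail, was the input for labelling. In a bulk culture, fewer cells in S phase and less histone mRNA in each cell cannot be told apart.

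Histone mRNA fell broadly with vemurafenib: 49 of the 57 genes (86.0%) were lower, 1 was higher and 7 did not pass the threshold, an adjusted p of 0.05 in limma, a linear model fitted to all genes, after Benjamini-Hochberg adjustment. Of all genes tested, 45.5% passed in either direction, 22.2% were lower and 23.2% were higher. The median change of the histone genes was -1.08, a 2.12-fold lower level, against -0.05 over all genes. A fall of at least 2-fold was found for 30 histone genes, or 52.6%, where 2.62% of all genes fell that far. The 3 vemurafenib arrays lay wholly below the 3 vehicle arrays for 50 histone genes, against 28.5% of all genes. These figures describe the genes and are not a test of the group, since earlier results of these data were known when it was chosen. Among all genes the balance of calls depended on scaling, with 4090 lower and 4281 higher as deposited and 5630 lower and 3682 higher when each array was centred on the median of the genes tested; the histone counts were then 52 lower and 1 higher.

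Coding sequences within a histone class are nearly alike, and the probe sequences were not used here, so a probe set may also pick up RNA of a sister gene. Another 20 probe sets named a histone gene of this kind together with other genes and were left out; 12 more genes that fit the name pattern were covered by such shared sets alone. Of their 17 distinct sets of values, 12 were lower and 4 higher, with changes from -1.40 to 1.11. These calls came from a separate limma fit to all 33297 probe sets, adjusted over them. The share of all probe sets called in that fit was not counted.

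The arrays were checked against drug response and cell identity. All 6 ERK pathway genes chosen as a check on treatment (DUSP6, SPRY2, SPRY4, ETV4, ETV5 and CCND1) were lower with vemurafenib, with a median change of -3.82. As a measure of dim signal, 341 olfactory receptor genes, whose products serve the sense of smell, had a median level of 5.50 and a 95th percentile of 7.28. Of 9 measured melanoma markers, SOX10, MITF, S100B, CSPG4, MCAM and ERBB3 lay above that percentile in both groups, and PMEL, MLANA and TYR lay below it; 4 markers rose and 1 fell, where 23.2% of all genes were higher and 22.2% lower. Keratinocyte markers summed over the list ran from 35.2 to 35.8 in vehicle and from 34.9 to 36.1 with drug, and 0 of 5 passed the adjusted threshold in limma (1 of 5 had an unadjusted p under 0.05). Fibroblast markers summed to 42.8 to 43.9 and 44.9 to 46.2, with DCN and LUM higher of 6, and leukocyte markers to 28.0 to 28.1 and 26.9 to 27.0, with CD14 and LYZ lower of 4. PTPRC, the defining leukocyte marker, lay at 4.53 and 4.65, below the olfactory receptor median. LYZ of the same list lay at 10.29 and 9.54, above the 95th percentile of olfactory receptor genes. KRT14, KRT10, COL1A1 and LUM also lay above that percentile in both groups, and COL1A2 did so in vehicle only. The other markers of these lists lay below it in both groups. The part of these markers in the histone results was not tested.

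**Figure D1:**
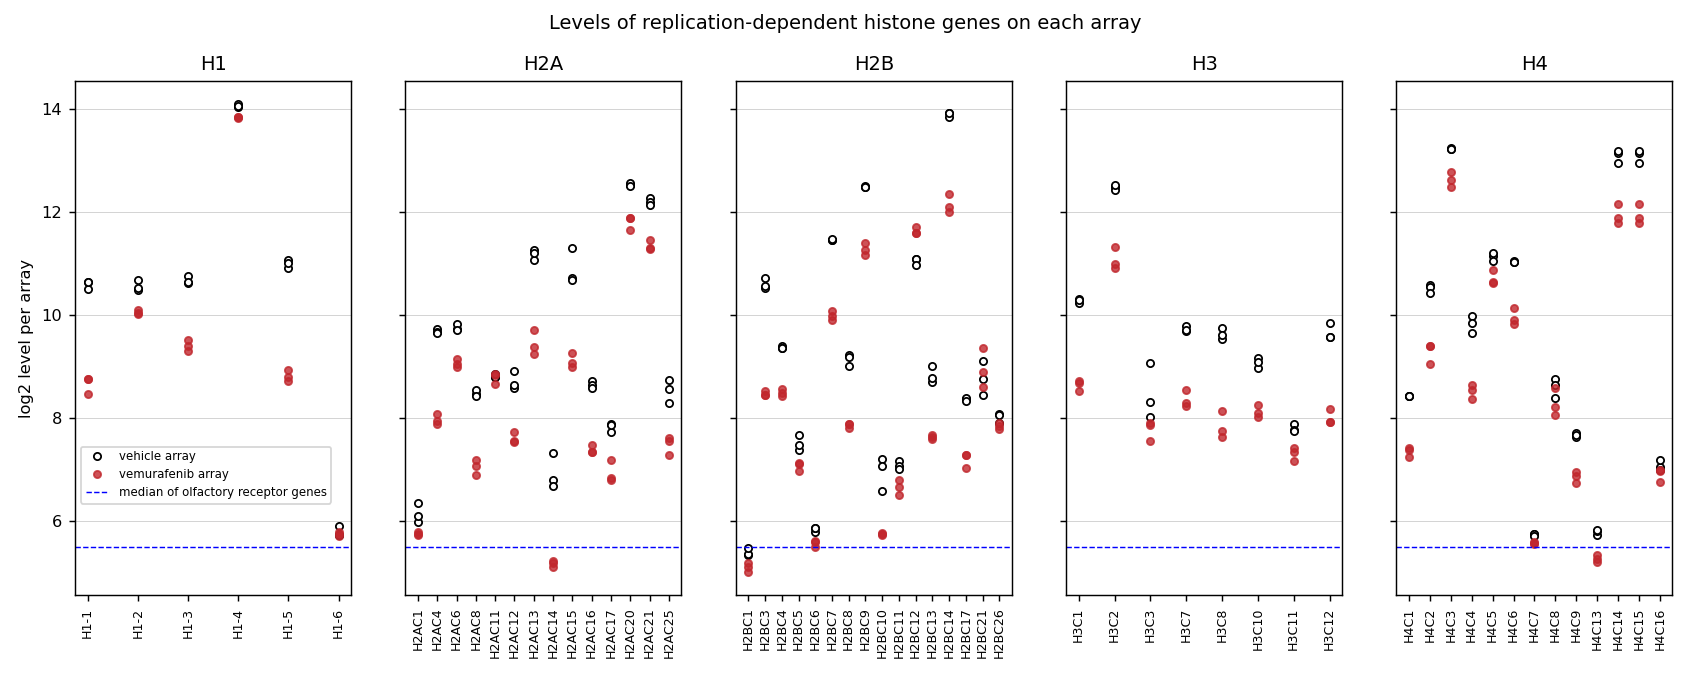
Log2 level of each histone gene on each of the 6 arrays, in 5 panels by class; open circles are vehicle arrays, red circles are vemurafenib arrays, and the dashed line is the median of olfactory receptor genes (5.50). For 50 of the 57 genes all red circles lie below all open circles, and for H2BC12 they lie above.

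Promoter sequence is shown for the genes on which the account turns. RefSeq promoter windows (GRCh38.p14), from 250 bases before to 50 bases after the start, were matched for 52 of the 57 genes. The 150 bases before the start are printed for H1-5 (chr6:27867589-27867738, minus strand) and H2BC3 (chr6:26043714-26043863, minus strand), which had the largest falls, and for H2BC12 (chr6:27146859-27147008, minus strand), which rose. Capitals mark 3 motifs searched on both strands: TATAAA, which reads TTTATA on the other strand, CCAAT, which reads ATTGG, and the octamer ATTTGCAT, which reads ATGCAAAT.
H1-5: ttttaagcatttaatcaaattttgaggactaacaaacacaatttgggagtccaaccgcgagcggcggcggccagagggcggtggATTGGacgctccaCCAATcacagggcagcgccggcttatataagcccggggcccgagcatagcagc
H2BC3: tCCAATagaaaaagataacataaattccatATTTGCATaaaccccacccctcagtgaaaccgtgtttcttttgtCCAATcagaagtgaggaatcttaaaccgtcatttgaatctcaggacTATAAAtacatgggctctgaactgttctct
H2BC12: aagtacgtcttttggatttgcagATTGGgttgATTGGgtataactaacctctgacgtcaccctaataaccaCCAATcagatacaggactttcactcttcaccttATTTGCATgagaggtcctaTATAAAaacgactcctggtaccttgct
The stretch of H2BC12, which rose, and that of H2BC3, which fell, each held all 3 motifs. The stretch of H1-5 held CCAAT on both strands and neither of the others as spelled. Other spellings of a TATA box, such as the tatataa printed near its end, were not searched.

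The octamer is known as an element of H2B promoters, CCAAT as a binding site of the factor NF-Y, and TATAAA as a form of the TATA box. The octamer lay in the windows of 23 of 52 histone genes, 10 of 13 H2A and 13 of 16 H2B genes, and in 1.80% of the 27305 genes with a window. CCAAT lay in 44 of 52 (35.7% of all genes), among them every matched H1, H2A, H2B and H3 gene and 3 of 11 H4 genes. TATAAA lay in 34 of 52 (12% of all genes). No motif contains another, though neighbouring matches can share end letters. The motifs were unevenly spread over the classes, so changes were set side by side within a class. Among H2A genes the median change was -0.88 with the octamer and -1.73 without it, and among H2B genes -1.16 with it and -0.44 without it, with 3 genes lacking it in each class. Among H4 genes it was -0.82 with CCAAT and -0.79 without it. These differences were not tested. Some neighbouring H2A and H2B genes read outward from a shared stretch, so their windows overlap and a motif there counted for both. Among the genes without the octamer, H2AC13 and H2BC13 share such a stretch, as do H2AC25 and H2BC26. A match is a description of letters in the window.

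Among the linker histone genes, 5 of 6 fell and the testis gene H1-6 did not pass the threshold. H1-5 read 11.07, 10.91 and 11.01 on the vehicle arrays and 8.80, 8.72 and 8.93 on the vemurafenib arrays. Its groups lay far apart, and its change of -2.18 (SE 0.08, 4.52-fold lower, limma adjusted p 4.94e-09) was the largest of any histone gene measured. H1-1 read 10.64, 10.50 and 10.65 in vehicle and 8.76, 8.47 and 8.76 with drug, 3.82-fold lower (-1.94, SE 0.09, limma adjusted p 2.94e-08). H1-3 read 10.63, 10.76 and 10.65 in vehicle and 9.52, 9.32 and 9.40 with drug, 2.40-fold lower (-1.26, SE 0.08, limma adjusted p 2.13e-07). These 3 fell more than 2-fold with no overlap between the groups.

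The other somatic linker genes moved less. H1-2 read 10.68, 10.49 and 10.53 in vehicle and 10.10, 10.02 and 10.05 with drug, 1.42-fold lower (-0.51, SE 0.08, limma adjusted p 0.000184). H1-4 read 14.04, 14.09 and 14.06 in vehicle and 13.84, 13.85 and 13.82 with drug. Its groups did not overlap, but the change was small, at -0.23 (SE 0.07, limma adjusted p 0.0153). The interval of the H1-5 change, -2.35 to -2.00, and that of H1-4, -0.37 to -0.08, lay far apart. The difference between these genes was not tested. H1-4 had the highest mean vehicle level of the histone genes, 14.07, where the highest among all genes tested was 14.35. Whether so bright a signal limited its change was not tested. H1-6, a linker histone of male germ cells, averaged 5.80 ± 0.11 and 5.75 ± 0.04 (SD, n = 3), near the olfactory receptor median.

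H2A genes, which encode a partner of H2B in the core particle, fell in 13 of 14 cases with a median change of -1.08. H2AC15 read 10.72, 11.30 and 10.69 in vehicle and 9.26, 8.99 and 9.07 with drug, 3.47-fold lower (-1.80, SE 0.14, limma adjusted p 1.55e-06). H2AC14 read 7.32, 6.81 and 6.69 in vehicle and 5.11, 5.19 and 5.23 with drug (-1.77, SE 0.13, limma adjusted p 1.04e-06). Its drug level lay below the olfactory receptor median of 5.50. H2AC13 read 11.27, 11.06 and 11.20 in vehicle and 9.71, 9.39 and 9.25 with drug, 3.31-fold lower (-1.73, SE 0.11, limma adjusted p 2.83e-07). In each of these genes the groups lay apart by more than a log2 unit.

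H2AC20 read 12.54, 12.57 and 12.50 in vehicle and 11.89, 11.66 and 11.88 with drug, 1.65-fold lower (-0.72, SE 0.08, limma adjusted p 2.07e-05). H2AC6 read 9.73, 9.83 and 9.71 in vehicle and 8.99, 9.05 and 9.15 with drug, 1.62-fold lower (-0.69, SE 0.07, limma adjusted p 1.53e-05). Between these and the larger falls lay H2AC4 (-1.72), H2AC8 (-1.44), H2AC16 (-1.26), H2AC12 (-1.10), H2AC25 (-1.05), H2AC17 (-0.89) and H2AC21 (-0.86), all of which fell. H2AC1, a germ cell gene with a dim vehicle level of 6.15, changed by -0.39. The exception was H2AC11, which read 8.81, 8.81 and 8.87 in vehicle and 8.86, 8.84 and 8.67 with drug. Its groups overlapped, and the interval of its change, -0.20 to 0.13, held no fall of the size seen in most H2A genes (limma adjusted p 0.705).

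H2B genes were the most varied in direction, with 13 of 16 lower, H2BC12 higher and H2BC21 and H2BC26 short of the threshold. H2BC3 read 10.72, 10.52 and 10.58 in vehicle and 8.54, 8.45 and 8.44 with drug, 4.38-fold lower (-2.13, SE 0.08, limma adjusted p 4.10e-09). H2BC14 read 13.92, 13.84 and 13.92 in vehicle and 12.36, 12.003 and 12.09 with drug, 3.35-fold lower (-1.74, SE 0.09, limma adjusted p 7.09e-08). H2BC7 read 11.46, 11.47 and 11.47 in vehicle and 10.08, 9.98 and 9.91 with drug, 2.79-fold lower (-1.48, SE 0.07, limma adjusted p 3.48e-08). The vehicle arrays of H2BC7 differed by under 0.1, and the drug arrays all lay more than a log2 unit below them.

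H2BC12 moved the other way. It read 11.09, 11.09 and 10.98 in vehicle and 11.59, 11.60 and 11.72 with drug, 1.50-fold higher (0.58, SE 0.07, 95% interval 0.42 to 0.74, limma adjusted p 5.90e-05). All drug arrays lay above all vehicle arrays, and the gene passed upward in all 17 alternative fits, with adjusted p from 8.51e-07 to 0.000708. H2BC21 read 8.75, 9.11 and 8.46 in vehicle and 8.89, 9.36 and 8.61 with drug (0.18, SE 0.19, limma adjusted p 0.463). The arrays of each group spread over more than 0.6, the groups overlapped, and the interval of -0.23 to 0.59 allowed a rise as large as that of H2BC12.

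H2BC12 and H2BC21 belong to a handful of these genes known to make polyadenylated transcripts as well, in cells that have left the cycle; H1-2, H2AC6, H2BC4 and H2BC5 were listed with them. Of these 6 genes 4 fell, 1 rose and 1 did not pass, and their median change was -0.48 against -1.08 for the whole group. H2BC4 read 9.41, 9.37 and 9.37 in vehicle and 8.57, 8.50 and 8.43 with drug (-0.89, SE 0.07, limma adjusted p 1.44e-06). H2BC5 read 7.39, 7.48 and 7.68 in vehicle and 7.12, 7.13 and 6.98 with drug (-0.44, SE 0.09, limma adjusted p 0.00157). The 4 that fell did so by less than 2-fold. A probe set of this kind does not show which of the transcript forms it measured, and the difference between the 6 genes and the rest was not tested.

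The remaining H2B genes that fell were H2BC8 (-1.28), H2BC9 (-1.21), H2BC10 (-1.20), H2BC13 (-1.20), H2BC17 (-1.16), H2BC11 (-0.42), the germ cell gene H2BC1 (-0.29) and H2BC6 (-0.27). H2BC1 and H2BC6, at vehicle levels of 5.40 and 5.84, lay within the range of olfactory receptor genes. H2BC26 averaged 8.02 ± 0.10 and 7.85 ± 0.06 (SD, n = 3), and its change of -0.17 had a limma adjusted p of 0.104. Its call depended on the fit: it was lower with vehicle array 2 omitted (-0.22, limma adjusted p 0.0343), with array weights (limma adjusted p 0.0276) and with centring on the median of the genes tested (limma adjusted p 0.0228), and over the alternatives its adjusted p ran from 0.0228 to 0.296.

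All 8 H3 genes, which encode the core histone that carries many regulatory marks, fell, with a median change of -1.39. H3C8 read 9.74, 9.53 and 9.61 in vehicle and 8.13, 7.64 and 7.76 with drug, 3.45-fold lower (-1.78, SE 0.12, limma adjusted p 3.18e-07). H3C12 read 9.85, 9.57 and 9.58 in vehicle and 8.17, 7.93 and 7.94 with drug, 3.14-fold lower (-1.65, SE 0.10, limma adjusted p 1.50e-07). H3C1 read 10.31, 10.23 and 10.30 in vehicle and 8.73, 8.53 and 8.68 with drug, 3.10-fold lower (-1.63, SE 0.08, limma adjusted p 2.64e-08). No drug array of these genes came within a log2 unit of a vehicle array. H3C2 read 12.49, 12.43 and 12.52 in vehicle and 11.32, 10.99 and 10.92 with drug, 2.64-fold lower (-1.40, SE 0.10, limma adjusted p 6.42e-07).

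H3C7 (-1.38), H3C10 (-0.94) and H3C11 (-0.49) also fell. H3C3 was the least certain. It read 9.08, 8.03 and 8.32 in vehicle and 7.91, 7.87 and 7.55 with drug (-0.70, SE 0.21, limma adjusted p 0.0181). Its vehicle arrays spread over about a log2 unit, and without vehicle replicate 1 its change was -0.40 (limma adjusted p 0.0270). Without vemurafenib replicate 3 its change of -0.59 did not pass (limma adjusted p 0.0650; range over the alternatives 0.00210 to 0.0650).

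Of 13 H4 genes, whose protein pairs with H3, 10 fell and 3 did not pass, with a median change of -0.82. H4C4 read 9.98, 9.66 and 9.84 in vehicle and 8.64, 8.38 and 8.54 with drug, 2.47-fold lower (-1.31, SE 0.10, limma adjusted p 8.28e-07). H4C2 read 10.60, 10.55 and 10.43 in vehicle and 9.40, 9.05 and 9.40 with drug, 2.37-fold lower (-1.24, SE 0.10, limma adjusted p 1.66e-06). The shared values of H4C14 and H4C15 were 13.16, 13.19 and 12.96 in vehicle and 12.15, 11.79 and 11.89 with drug, 2.23-fold lower (-1.15, SE 0.10, limma adjusted p 3.26e-06). Counted once, they leave 48 lower genes among the 56 measurements. H4C3 read 13.25, 13.23 and 13.22 in vehicle and 12.62, 12.49 and 12.79 with drug, 1.52-fold lower (-0.60, SE 0.08, limma adjusted p 0.000123).

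H4C6 (-1.08), H4C1 (-1.08), H4C9 (-0.82), H4C13 (-0.52, from a dim vehicle level of 5.79) and H4C5 (-0.43) also fell. H4C7, H4C8 and H4C16 did not pass, with changes of -0.16, -0.31 and -0.17 and limma adjusted p values of 0.0647, 0.0696 and 0.139. H4C7 lay near the olfactory receptor median at 5.75 and 5.59, and its groups did not overlap. H4C7 was lower with centring on the median of the genes tested (limma adjusted p 0.0144) and with array weights (limma adjusted p 0.0274). H4C16 was lower with array weights alone (limma adjusted p 0.0145). H4C8 read 8.77, 8.64 and 8.40 in vehicle and 8.22, 8.58 and 8.07 with drug, so that its groups overlapped. Its call depended on the fit. It was lower in 6 of 17 alternative fits: with vehicle array 3 omitted (-0.41, limma adjusted p 0.0282), with drug array 2 omitted (-0.46, limma adjusted p 0.00751), and under 4 settings that keep every array (limma adjusted p 0.0169 with array weights, 0.0384 with the replicate number as a fixed block, 0.0428 with centring on the median of the genes tested and 0.0437 without the dimmest 50% of genes). Over all alternatives its adjusted p ran from 0.00751 to 0.222.

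Dim genes were treated apart. Of the 11 histone genes whose mean level over all arrays was no higher than the 95th percentile of olfactory receptor genes, 8 were lower and the median change was -0.39. Of the other 46, 41 were lower and 1 higher, with a median of -1.15. H2AC14 and H2BC10 were the 2 dim genes that fell at least 2-fold. The olfactory receptor genes themselves had a median change of -0.08, with 31 of 341 lower and 19 higher. The germ cell genes H1-6, H2AC1 and H2BC1 were all among the 11 dim ones.

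The genes lie on 3 chromosomes in the RefSeq gene table, which was used for their order and spacing. On chromosome 6 there were 49, of which 44 were lower and 1 higher, on chromosome 1 there were 7, of which 5 were lower, and H4C16 stood alone on chromosome 12. Gaps of over 200 kilobases part the genes of chromosome 6 into 4 groups. In the group of 29 genes from H1-1 to H4C8, 26 were lower with a median change of -1.20, and in the group of 13 genes from H2BC13 to H2BC17, all 13 were lower with a median of -1.26. The group of 5 between them held both H2BC11, H4C9 and H2AC12, which fell, and H2AC11 and H2BC12, which did not; its median was -0.42. Within it H2BC12 (0.58) and H2AC12 (-1.10) had the highest and the lowest change. The group of H2AC1 and H2BC1 had changes of -0.39 and -0.29.

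**Figure D2:**
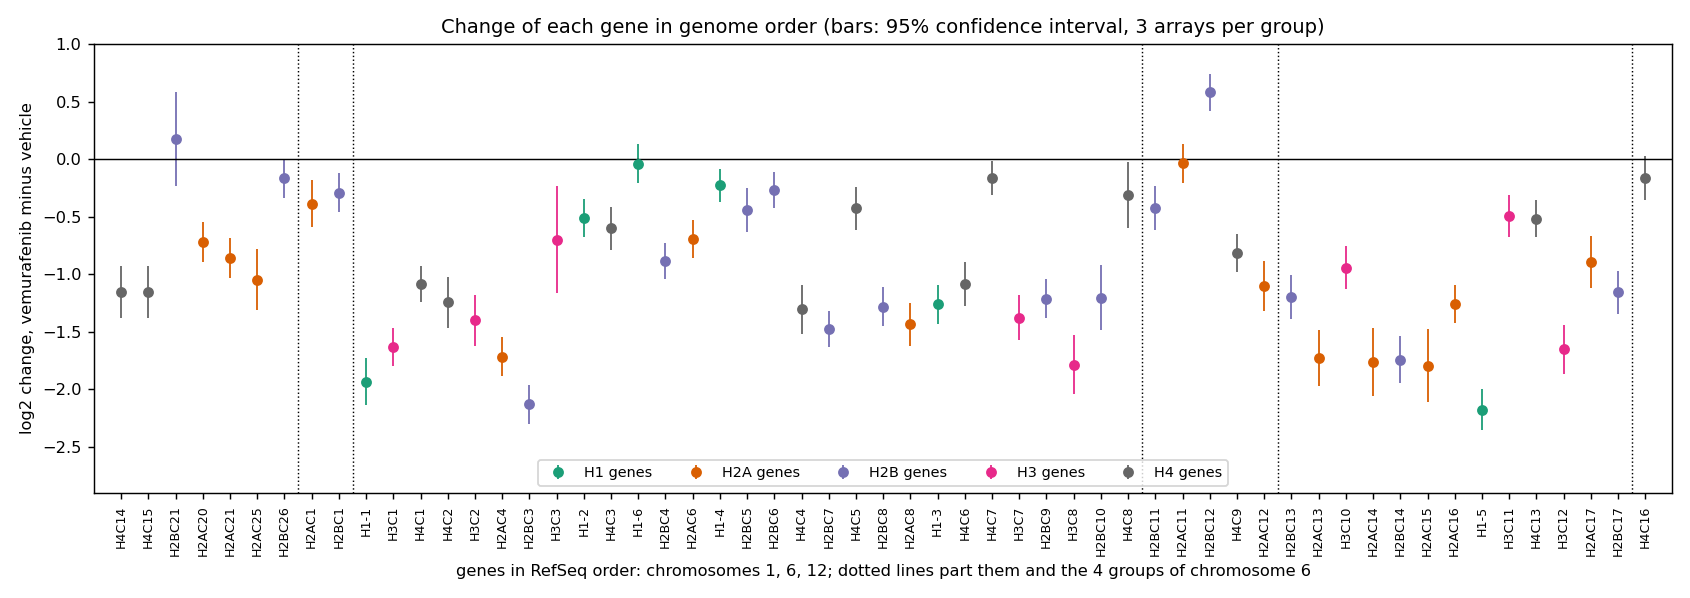
Log2 change (vemurafenib minus vehicle) of each histone gene with its 95% confidence interval from 3 arrays per group, in RefSeq gene order and coloured by class; dotted lines part the chromosomes and the 4 groups on chromosome 6. H2BC12 at 0.58 is the only gene with an interval above 0, and it lies in the group of 5 genes whose median is -0.42.

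H2A and H2B genes often start head to head, so that both read outward from a shared stretch of DNA. Among matched genes 9 such pairs had start sites at most 250 bases apart, with 214 to 247 bases between them. The 5 genes without a matched window, H2AC12 among them, could not be assigned to a pair. Whether H2AC12 (-1.10) starts head to head with H2BC12 (0.58) was therefore not examined. In 6 pairs the changes of both genes lay within 0.5 of each other. They included H2AC14 (-1.77) and H2BC14 (-1.74), and H2AC1 (-0.39) and H2BC1 (-0.29). The drug level of H2AC14 (5.18) lay below the olfactory receptor median, and H2AC1 and H2BC1 were dim in both groups; the part of background in these changes was not tested. H2AC8 and H2BC8 (-1.44 and -1.28), H2AC6 and H2BC4 (-0.69 and -0.89), H2AC17 and H2BC17 (-0.89 and -1.16) and H2AC11 and H2BC11 (-0.04 and -0.42) were the others. The intervals of H2AC11 (-0.20 to 0.13) and H2BC11 (-0.61 to -0.23) did not overlap. How often H2A and H2B genes that are not partners lay within 0.5 of each other was not counted.

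Among these 9 pairs, those more than 0.5 apart were H2AC20 with H2BC21, H2AC25 with H2BC26, and H2AC13 with H2BC13. H2AC20 changed by -0.72 (95% interval -0.90 to -0.54) while H2BC21 changed by 0.18 (-0.23 to 0.59). H2AC25 changed by -1.05 (-1.31 to -0.79) and H2BC26 by -0.17 (-0.34 to 0.005). H2AC13 changed by -1.73, with an upper bound of -1.48, and H2BC13 by -1.20, with a lower bound of -1.39. In these 3 pairs, too, the intervals of the partners did not overlap, and the differences within pairs were not tested. With 1 array omitted at a time the change of H2BC21 ran from -0.028 to 0.35. The shared stretches between the start sites are printed for a pair more than 0.5 apart, H2BC21 and H2AC20 (chr1:149886683-149886917, plus strand), and a pair within 0.5, H2AC14 and H2BC14 (chr6:27814778-27815021, plus strand), with the same motifs in capitals.
H2BC21 to H2AC20: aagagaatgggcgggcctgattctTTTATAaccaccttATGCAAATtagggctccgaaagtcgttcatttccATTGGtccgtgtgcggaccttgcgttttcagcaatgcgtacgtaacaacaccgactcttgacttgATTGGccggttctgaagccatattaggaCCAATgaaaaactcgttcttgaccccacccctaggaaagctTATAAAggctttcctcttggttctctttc
H2AC14 to H2BC14: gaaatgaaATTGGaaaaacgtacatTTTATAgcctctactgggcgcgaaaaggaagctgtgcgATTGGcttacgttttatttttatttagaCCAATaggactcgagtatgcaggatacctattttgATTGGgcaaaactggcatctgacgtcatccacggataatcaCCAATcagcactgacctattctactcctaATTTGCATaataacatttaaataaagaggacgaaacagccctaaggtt
Both stretches held the octamer, CCAAT and TATAAA or its reverse complement.

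**Figure D3:**
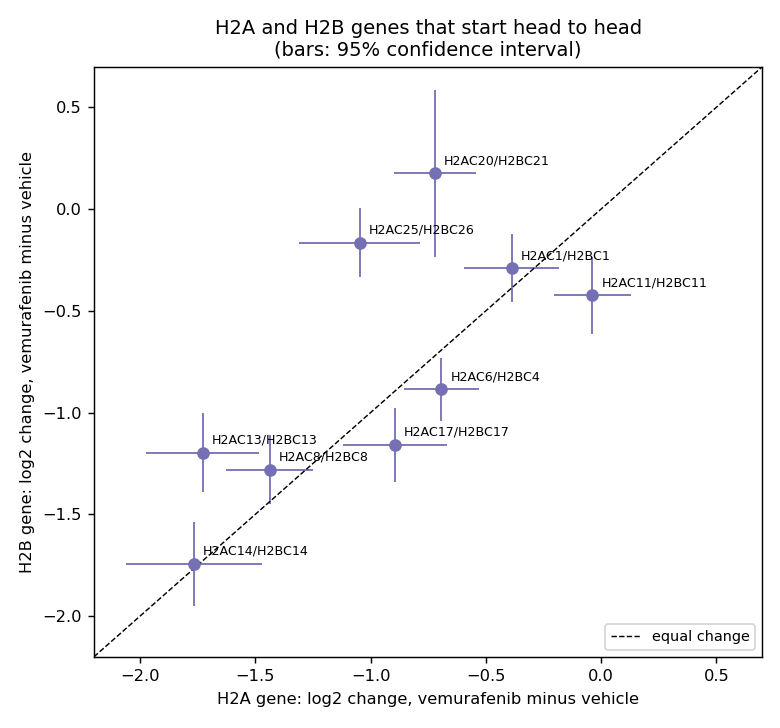
Log2 change (vemurafenib minus vehicle) in 9 head-to-head pairs of matched genes. The H2A gene is on the horizontal axis and the H2B gene on the vertical axis. Bars are 95% confidence intervals, and the dashed line marks equal change. H2AC20 with H2BC21 and H2AC25 with H2BC26 lie to the upper left of the line, with differences of 0.90 and 0.88 between partners.

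Genes that serve histone supply were read from lists drawn up from general knowledge. Of 11 genes measured for histone gene transcription 9 fell (81.8%) and 1 rose, with a median change of -0.66. Among all genes 22.2% were lower and 23.2% higher. This list includes the cell cycle genes CCNE1, CCNE2, CDK2, CCNA2, CDC25A and E2F1, all of which fell. NPAT, the coactivator of histone genes that cyclin E and CDK2 switch on, read 10.13, 10.02 and 10.16 in vehicle and 9.52, 9.47 and 9.52 with drug, 1.52-fold lower (-0.60, SE 0.07, limma adjusted p 3.26e-05). CASP8AP2, its partner in histone locus bodies, changed by -0.44. CCNE2 (cyclin E2, -2.60), the phosphatase gene CDC25A (-2.54), E2F1 (-1.60) and CCNA2 (cyclin A2, -1.33) had the largest falls, and CDK2 changed by -1.22 and CCNE1 by -0.66. HINFP, a factor that binds H4 promoters, rose from 9.32 ± 0.07 to 9.65 ± 0.02 (SD, n = 3; 0.33, limma adjusted p 0.00246). GON4L was at 0.13 (limma adjusted p 0.195). YY1 was at -0.23, a call lost when any of vehicle replicates 1, 2 and 3 or vemurafenib replicates 1 and 2 was omitted (limma adjusted p 0.0546, 0.0825, 0.0735, 0.0920 and 0.120) and with renewed quantile normalization (0.103).

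Of 16 measured genes for processing of the histone mRNA 3′ end, 10 fell (62.5%) and 1 rose, where 22.2% of all genes were lower and 23.2% higher. SLBP, which binds the stem-loop, read 11.22, 11.11 and 11.04 in vehicle and 10.35, 10.25 and 10.28 with drug, 1.78-fold lower (-0.83, SE 0.08, limma adjusted p 3.86e-06). ZNF473, a zinc finger protein of the U7 particle, was 2.29-fold lower (-1.20), and the U7 ring proteins LSM11 and LSM10 changed by -0.52 and -0.35. CSTF2 changed by -0.83 and SNRPD3 by -0.65, while CPSF2, CPSF3, which holds the cutting activity, and the scaffold SYMPK stood at -0.14, -0.13 and -0.02 with limma adjusted p of 0.115, 0.204 and 0.833. MIF4GD, which links SLBP to translation, rose 1.84-fold, from 9.41, 9.33 and 9.32 to 10.27, 10.14 and 10.29 (0.88, SE 0.07, limma adjusted p 2.09e-06). The call of SNRPG, a shared Sm ring protein, at -0.46 was lost on omission of vehicle replicate 1 or 2 or of any vemurafenib array (limma adjusted p from 0.0637 to 0.113).

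Of 12 genes of histone mRNA decay 4 fell (33.3%) and 3 rose, shares near those of all genes (22.2% lower and 23.2% higher). ERI1, an exonuclease that trims the stem-loop end, was 1.79-fold lower (-0.84, SE 0.11, limma adjusted p 5.35e-05). The exonuclease gene XRN1 (0.54) and the uridylyltransferase genes TUT7 (0.51) and TUT4 (0.31) rose. UPF1, a helicase that acts with SLBP in decay, changed by -0.32 and DCP2, a decapping enzyme, by -0.33. The call of ATR, a replication stress kinase, at -0.25 was lost on omission of vehicle array 1 or 3 or of drug array 1 or 3 (limma adjusted p 0.0838, 0.0881, 0.0637 and 0.0606).

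Of 24 histone chaperones, which carry histones to DNA, 18 fell (75%) and 3 rose, with a median change of -0.52. The shares of all genes were 22.2% lower and 23.2% higher. The largest falls were those of MMS22L (-1.81), HJURP, the chaperone of centromeric H3 (-1.78), ASF1B (-1.74) and CHAF1A, a subunit of the factor that loads H3 and H4 at forks (-1.52). ASF1B read 12.05, 12.12 and 12.03 in vehicle and 10.54, 10.21 and 10.24 with drug, 3.33-fold lower (limma adjusted p 6.82e-08). CHAF1B changed by -1.11 and NASP by -0.79. Among genes that act in deposition outside replication, ATRX (0.41) and UBN2 (0.33) rose, HIRA (-0.42) and UBN1 (-0.58) fell, and DAXX (-0.18) and CABIN1 (0.09) did not pass (limma adjusted p 0.141 and 0.319). The rise of the sister gene ASF1A (0.20, limma adjusted p 0.0304) was lost on omission of vehicle array 1 or 3 or of drug array 1 or 3 (limma adjusted p 0.0588, 0.0988, 0.111 and 0.0503), and with arrays centred on the median of the genes tested (0.0830). Of those that fell, NAP1L4 did not pass without vehicle array 1 (limma adjusted p 0.0719). SSRP1 (-0.51) did not pass when the dimmest probe set of the gene was used (0.004, limma adjusted p 0.969). RBBP4 (-0.20) did not pass without vehicle array 1 or 3 or any 1 of the drug arrays (limma adjusted p from 0.0642 to 0.172).

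Of 9 measured variant histone genes 6 fell (66.7%) and 1 rose, with a median change of -0.33, beside 22.2% of all genes lower and 23.2% higher. H2AX, the variant phosphorylated at DNA breaks, was 1.79-fold lower (-0.84, SE 0.07, limma adjusted p 3.03e-06), H2AZ1 1.50-fold (-0.58), MACROH2A1 1.36-fold (-0.44) and H2AZ2 1.34-fold (-0.42). H3-3B changed by -0.30, and H1-10 and MACROH2A2 stood at -0.10 and -0.17 (limma adjusted p 0.382 and 0.137). H3-5, at -0.33, did not pass without vehicle replicate 1 (limma adjusted p 0.0531). The rise of H2AJ (0.27, limma adjusted p 0.0230) was lost without any of vehicle replicates 1, 2 and 3 or without vemurafenib replicate 3 (limma adjusted p 0.0564, 0.0518, 0.0538 and 0.0712). It was also lost with arrays centred on the median of the genes tested (limma adjusted p 0.0566).

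DNA synthesis genes, which act in the same phase, all fell: 29 of 29 were lower, against 22.2% of all genes. Their median change was -1.41, with a range of -2.54 to -0.72. CDC45 (-2.54), RRM2 (-2.44), POLE2 (-2.23) and GINS2 (-1.97) changed most. The histone genes had a wider range, from -2.18 to 0.58. That difference between the groups was not tested.

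**Figure D4:**
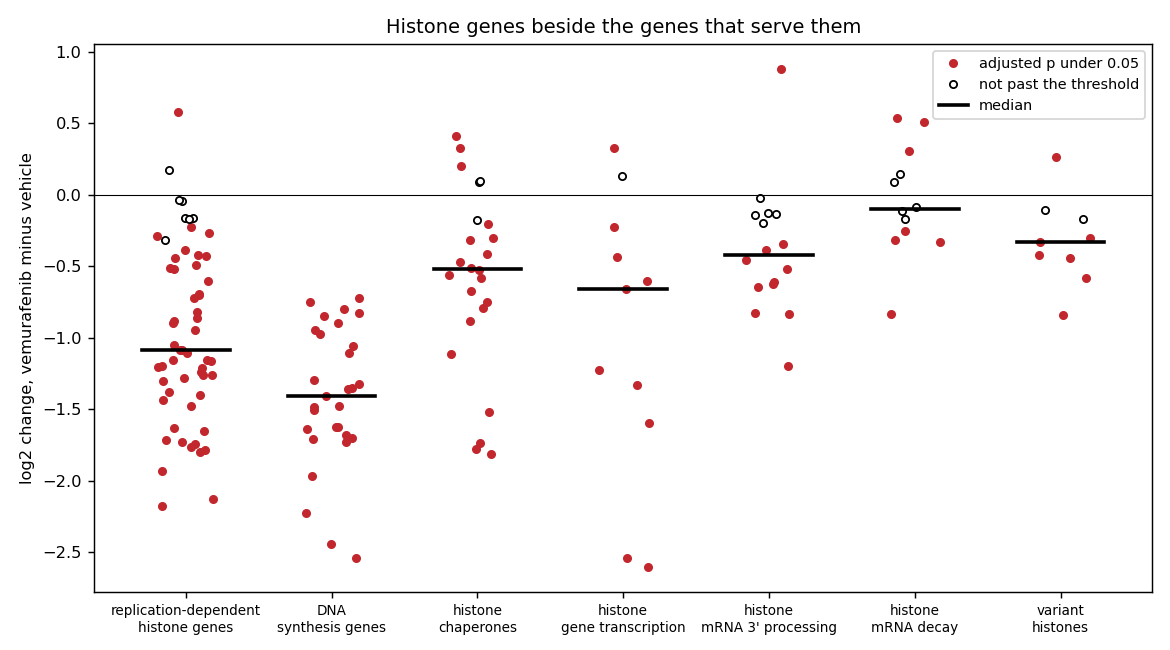
Log2 change (vemurafenib minus vehicle) of each measured gene in the histone group and in 6 lists; red points passed the adjusted p threshold, open points did not, and bars are medians. The medians run from -1.41 for DNA synthesis genes and -1.08 for histone genes to -0.10 for histone mRNA decay genes.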

How the data were processed

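RNA of 6 A375 dishes, 3 vehicle and 3 vemurafenib, was measured on single-colour Affymetrix arrays. The table deposited by the authors gives log2 values for 33297 probe sets. The submitters' processing notes name RMA and Partek, without versions. The usual RMA gives all arrays the same distribution, so a change of total RNA would not be seen. Apart from this, large folds are compressed on such arrays. A genome build is not given in the sources used here. Groups came from the sample titles.

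Probe sets with 1 symbol in the platform annotation were used, the brightest over the 6 arrays per gene (18417 genes). limma 3.58.1 in R 4.3.3 was fitted to all of them with group as the only term, 2-sided, adjusted by Benjamini-Hochberg, with 7.08 prior degrees of freedom. The scripts were tested on simulated data. The members and lists were chosen with earlier results of these data known. Per class, array values are given for the 3 largest changes that passed, the brightest gene and genes against the trend, plus 6 genes with known polyadenylated transcripts, and up to 4 largest per list. Figures used matplotlib 3.10.9. The alternatives were other scalings, dim-gene filters, probe set choices, moderation, weights, blocks and omitted arrays.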

Additional observations from a re-analysis of the deposited data

How the results depend on the processing

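Calls of single histone genes rarely moved: of 995 values recomputed for single genes, 977 kept direction and side of the threshold, 3 lost a call, 12 gained one and 3 turned sign. With 1 array omitted at a time, lower histone genes numbered 48 to 50, the higher one stayed 1, and the median change ran from -1.12 to -1.04. Without the dimmest 50% of genes fewer members remained, with 31 lower in all, 6 H2A and 6 H2B, a median of -1.23, and 0 variant histones higher. Variant histones higher were 0 to 1 with 1 array omitted, and 0 at a threshold of 0.01 or when arrays were centred on the median of the genes tested, a setting chosen after the data were seen. At 0.01, histone chaperones higher numbered 1. Values that had not passed turned sign for H1-6 without vehicle replicate 3 (0.021; range with 1 array omitted -0.075 to 0.021), H2AC11 without vemurafenib replicate 3 (0.021; -0.071 to 0.021) and H2BC21 without vemurafenib replicate 2 (-0.028; -0.028 to 0.35); the cause was not tested. The replicate numbers were not taken as pairs, since the labels do not show which dishes were handled together. Deviations of same-numbered arrays correlated at 0.14, -0.18 and -0.25. Pairs of differently numbered arrays were not fitted. With the number as a fixed replicate block 50 histone genes were lower, and with a random replicate block 49; 1 was higher in each. Under the fixed block the list calls of ATR (limma adjusted p 0.0518), YY1 (0.0634), ASF1A (0.0615) and RBBP4 (0.0646) ended, and under the random block those of RBBP4 (0.0565) and SNRPG (0.0540).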
